A study of Mus musculus with 9 samples.

Results

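The genes described are Slc4a1, Epb42, Ank1, Tspan33, Ube2l6 and Ccndbp1, 6 of the 17093 genes held by the deposited tables of a mouse artery study. They were taken by gene name as genes of the red cell membrane and of late red cell maturation, with their levels in these libraries already known. Their differences between inhibitor-treated arteries and the other groups are therefore given as a description: no p-value stands beside them, and nothing is read from how many passed a threshold. Tests are given for other genes, and for these genes in the comparison of injured with sham arteries, which holds no inhibitor-treated library.

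The RNA came from the smooth muscle layer (media) of C57BL/6 mouse femoral arteries and was read in 9 libraries that form 3 groups of 3. Inhibitor-treated arteries were collected 14 days after a wire injury from mice given VS-4718, an inhibitor of focal adhesion kinase (FAK), by oral gavage at 50 mg/kg in 2 doses per day over 2 weeks. Injured arteries were collected 14 days after wire injury without the inhibitor, and sham arteries came from sham-operated mice. The vehicle was 10 mM citrate, and citrate and 2 doses per day are recorded for all 3 groups. The labels describe removal of the surrounding fat and adventitia and a flush of the lumen with lysis reagent against endothelial and immune cells. Whether each library came from its own animal is not stated, so the p-values reflect the spread between libraries, and that spread may be technical.

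The red cell keeps its shape through a protein skeleton that lies under the membrane and is tied to it by protein complexes. Band 3, encoded by Slc4a1, exchanges chloride for bicarbonate and is a membrane anchor of the skeleton. Ankyrin 1, encoded by Ank1, links band 3 to spectrin, and protein 4.2, encoded by Epb42, binds both band 3 and ankyrin. As red cell precursors mature they take up iron, make heme and globin, clear their organelles and lose the nucleus, and the reticulocytes that then enter the blood still hold mRNA. Tspan33 encodes a membrane-spanning tetraspanin needed for normal red cell formation in the mouse, Ube2l6 encodes an E2 enzyme that conjugates ubiquitin and the ubiquitin-like protein ISG15, and Ccndbp1 encodes a helix-loop-helix protein that binds cyclin D1.

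The stretches around the starts of Epb42, Ccndbp1 and Ube2l6 are shown because Epb42 and Ccndbp1 are next to each other on chromosome 2 and both were high in the same libraries, and because Ube2l6 had the most reads of the 6. Each runs from 250 bases before to 50 bases after the start of the gene in RefSeq on GRCm38.p6, and is written 5′ to 3′ on the strand of the gene. Capitals mark matches on either strand to a GATA word (AGATAA, the like word TGATAA, and each with a closing G, AGATAG beside TGATAG), the kind of site bound by GATA1, or to CCNCNCCC, a CACCC-type site of the kind bound by Krüppel-like factors, which also fits GC-rich runs.
Epb42 (chr2:121036828-121037127, minus strand): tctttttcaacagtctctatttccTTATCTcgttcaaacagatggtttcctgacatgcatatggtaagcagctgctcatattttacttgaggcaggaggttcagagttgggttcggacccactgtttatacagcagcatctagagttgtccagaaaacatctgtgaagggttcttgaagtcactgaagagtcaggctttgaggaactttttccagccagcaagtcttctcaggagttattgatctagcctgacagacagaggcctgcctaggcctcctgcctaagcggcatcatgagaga
Ccndbp1 (chr2:121008158-121008457, plus strand): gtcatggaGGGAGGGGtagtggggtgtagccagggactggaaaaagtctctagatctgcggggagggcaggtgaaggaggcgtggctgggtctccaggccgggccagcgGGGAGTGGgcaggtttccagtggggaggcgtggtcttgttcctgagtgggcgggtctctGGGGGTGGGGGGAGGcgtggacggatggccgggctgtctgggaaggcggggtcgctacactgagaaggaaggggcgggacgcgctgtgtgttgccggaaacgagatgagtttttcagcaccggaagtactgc
Ube2l6 (chr2:84798578-84798877, plus strand): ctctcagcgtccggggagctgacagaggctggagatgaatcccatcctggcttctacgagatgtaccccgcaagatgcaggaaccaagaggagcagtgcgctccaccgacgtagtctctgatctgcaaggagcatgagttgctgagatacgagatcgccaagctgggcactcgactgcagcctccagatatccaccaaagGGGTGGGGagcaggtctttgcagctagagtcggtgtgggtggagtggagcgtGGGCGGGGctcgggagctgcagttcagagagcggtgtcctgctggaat
The RefSeq start of Epb42 lies 195 bases downstream of the start in the GENCODE annotation, from which the gene coordinates below are taken; that of Ccndbp1 lies 5 bases downstream and that of Ube2l6 at the same base. With the RefSeq start base counted as 0, the Epb42 stretch held 1 GATA word, at -226, which is -31 from the GENCODE start, and no CACCC-type match. Ccndbp1 held 5 CACCC-type matches, at -242 and -141 and, overlapping each other, at -82, -80 and -75, and no GATA word. Ube2l6 held CACCC-type matches at -50 and 2, and Tspan33, whose stretch was also in the table, held 1 at -46; neither held a GATA word. Of all 32851 RefSeq promoter stretches of this length, 29.8% held a GATA word and 49.5% a CACCC-type match. Slc4a1 and Ank1 are named only. A match to letters describes the sequence and says nothing about binding in these arteries.

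The levels below are normalised read counts: reads recovered from the deposited values, divided by 1 factor per library over all 9 libraries. Reads recovered over the genes of the deposited tables came to between 14676891 and 21248740 per library. The media was recognisable in all of them: the summed level of 10 smooth muscle genes such as Acta2 and Myh11 lay between 662355 and 678284 in inhibitor-treated libraries, between 169363 and 197001 in injured libraries and between 577249 and 754390 in sham libraries. Some libraries stood apart on marker lists of other tissues. Skeletal muscle genes (16) summed to 46867 in inhibitor-treated replicate 2, to 673125 in injured replicate 2 and to 38396 in sham replicate 3, the highest library of each group. Hepatocyte genes (12) summed to 29059 in inhibitor-treated replicate 3, where albumin (Alb) lay at 16023, while it lay at 23.7 and 70.6 in the other inhibitor-treated libraries. Rn7sk, a nuclear RNA without a poly(A) tail, lay at 26973, 16224 and 18268 in inhibitor-treated libraries, between 13.1 and 15.5 in injured libraries and between 4.36 and 28.1 in sham libraries. Rn7sk thus moved with the inhibitor-treated group, and the part of library make-up in the results below was not tested.

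Slc4a1 (ENSMUSG00000006574, GRCm38 chr11:102348824-102366203, minus strand), the gene of band 3, lay at 1393, 4155 and 3038 in inhibitor-treated replicates 1, 2 and 3. It lay at 13.1, 1.90 and 3.44 in injured libraries and at 16.0, 8.21 and 18.5 in sham libraries. Every inhibitor-treated library stood far above all 6 others, with 9341 reads over the inhibitor-treated group, 17 over the injured group and 40 over the sham group, and injured and sham levels overlapped. The log2 fold change was 8.86 ± 0.63 (SE, n = 3 each) for inhibitor-treated against injured and 7.50 ± 0.42 for inhibitor-treated against sham. In bulk RNA, more cells of a type and more RNA per cell cannot be told apart.

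Epb42 (ENSMUSG00000023216, chr2:121017891-121037072, minus strand), the gene of protein 4.2, lay at 429, 1100 and 323 in inhibitor-treated libraries. It lay at 0, 1.90 and 0 in injured libraries, which is 2 reads in all, and at 7.01, 1.17 and 4.36 in sham libraries. The inhibitor-treated libraries again stood clear of the rest, and the other groups were close to 0 and overlapped. Because the injured group held so few reads, its fold is given from pooled reads: inhibitor-treated over injured was 945, with an exact 95% interval of 261 to 7810 that covers counting error only. Inhibitor-treated against sham gave a log2 fold change of 6.89 ± 0.57.

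Ank1 (ENSMUSG00000031543, chr8:22974844-23150497, plus strand), the gene of ankyrin 1, did not share this pattern. It lay at 401, 616 and 462 in inhibitor-treated libraries, at 327, 1453 and 234 in injured libraries and at 167, 202 and 186 in sham libraries. The inhibitor-treated libraries lay above all sham libraries but inside the range of the injured ones, where replicate 2 stood far above the others. The log2 fold change was 0.01 ± 0.62 for inhibitor-treated against injured and 0.81 ± 0.23 when injured replicate 2 was left out; inhibitor-treated against sham gave 1.40 ± 0.16. Ank1 also makes a short muscle form from an internal start, and injured replicate 2 was the library with the highest skeletal muscle sum, 673125, while the other injured libraries had 75373 and 40937. The tables give 1 value per gene and do not separate forms of Ank1, and the part of muscle RNA in its level was not tested. Reads of Gm15816, an antisense gene inside Ank1 with a mean level of 16.6, cannot be told apart from those of Ank1 unless the counting used strand, which is not given in the sources used here.

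Tspan33 (ENSMUSG00000001763, chr6:29694222-29718559, plus strand), the tetraspanin gene, lay at 652, 899 and 440 in inhibitor-treated libraries. It lay at 27.4, 72.1 and 17.2 in injured libraries and at 12.0, 17.6 and 9.80 in sham libraries. All inhibitor-treated libraries were above all others, injured replicate 2 was the highest of the others, and the injured and sham ranges overlapped at their edges. The log2 fold change was 4.25 ± 0.51 for inhibitor-treated against injured and 5.54 ± 0.29 for inhibitor-treated against sham.

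Ube2l6 (ENSMUSG00000027078, chr2:84798828-84810335, plus strand), the E2 enzyme gene, lay at 35225, 58520 and 24701 in inhibitor-treated libraries. It lay at 1431, 1330 and 681 in injured libraries and at 479, 448 and 458 in sham libraries. The groups formed 3 separate steps with no overlap, and the sham libraries were close to each other. The log2 fold change was 5.09 ± 0.38 for inhibitor-treated against injured and 6.34 ± 0.26 for inhibitor-treated against sham.

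Ccndbp1 (ENSMUSG00000023572, chr2:121008403-121016904, plus strand), the gene of the cyclin D1-binding protein, lay at 4095, 6221 and 4186 in inhibitor-treated libraries. It lay at 716, 745 and 728 in injured libraries and at 703, 702 and 699 in sham libraries. The inhibitor-treated libraries were clear of the others, and the 6 other libraries kept within a narrow band. The log2 fold change was 2.70 ± 0.16 for inhibitor-treated against injured and 2.77 ± 0.15 for inhibitor-treated against sham.

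**Figure D1:**
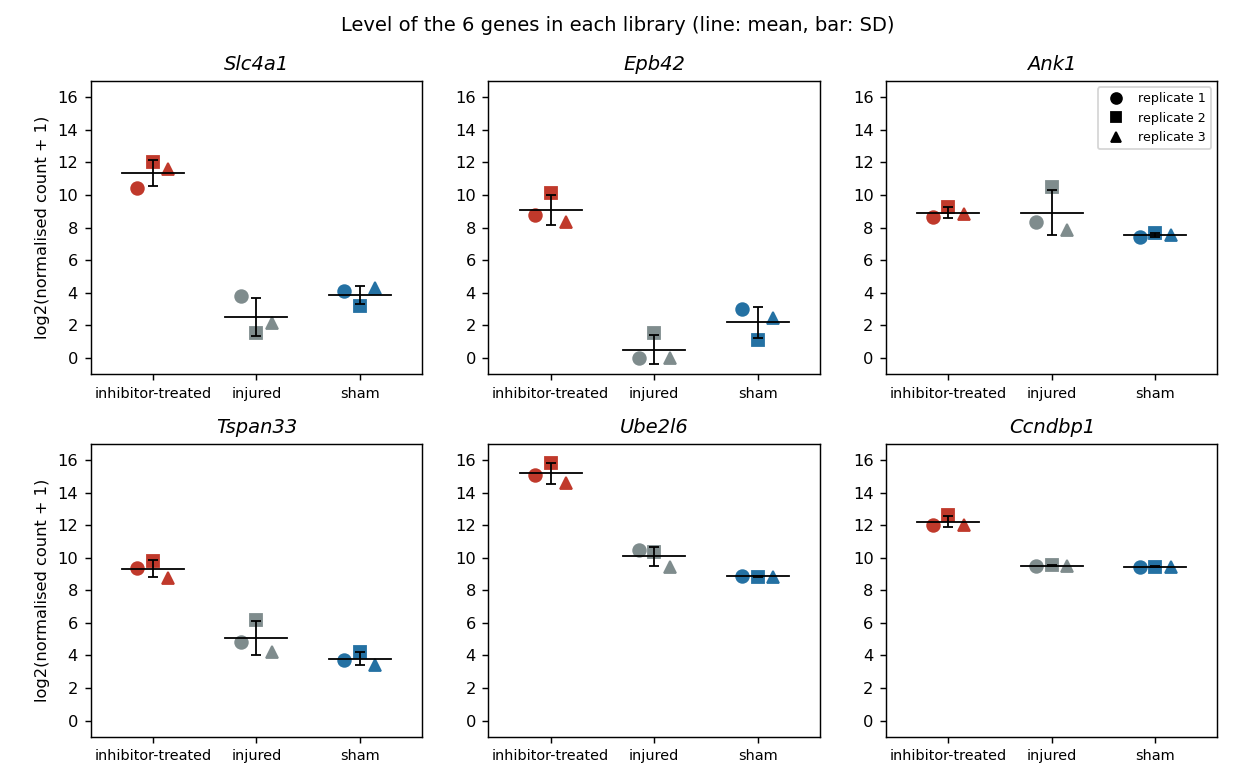
Level of each gene in each library, as log2(normalised count + 1), with inhibitor-treated, injured and sham libraries from left to right; symbols give the replicate, the line is the mean and the bar the SD of 3 libraries. For Slc4a1, Epb42, Tspan33, Ube2l6 and Ccndbp1 all inhibitor-treated libraries lie above the 6 others, while Ank1 at 1453 in injured replicate 2 lies above its inhibitor-treated libraries.

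In 5 of the 6 genes all inhibitor-treated libraries were above all 6 others, a pattern that 5.3% of 16750 genes had. Fitted over all genes, 5 of the 6 passed an adjusted p of 0.05 as higher in inhibitor-treated than in injured arteries, where 17.6% of 16901 genes did and 36.1% passed in either direction. Against sham 6 of 6 passed as higher, where 5.15% of 16166 genes did and 6.08% passed in either direction. Ank1 did not pass against sham in a fit of all 9 libraries, and passed against injured without injured replicate 2. The genes were chosen on these libraries, so nothing is read from these counts. The size of the gap differed widely: the lowest inhibitor-treated level over the highest level elsewhere was 75.3 for Slc4a1, 46.0 for Epb42, 17.3 for Ube2l6, 6.10 for Tspan33, 5.49 for Ccndbp1 and 0.276 for Ank1. Slc4a1 and Epb42, nearly absent from the other groups, had the widest gaps, and Ccndbp1, expressed in every library, had a narrower one.

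Per kilobase of exon, the levels of the genes spread over a wide range in inhibitor-treated libraries. Ube2l6 stood at 19781 ± 8671 normalised counts per kb (SD, n = 3), Ccndbp1 at 1393 ± 347 and Slc4a1 at 585 ± 284. Tspan33 at 128 ± 44.2 and Epb42 at 114 ± 77.8 per kb did not differ beyond their spread, and Ank1 was lowest at 36.4 ± 8.19. The membrane genes thus had less RNA per length than Ube2l6 and Ccndbp1 in the same libraries. In sham libraries the order per kb was Ube2l6 at 231 ± 7.84, Ccndbp1 at 202 ± 0.592, Ank1 at 13.7 ± 1.27, Slc4a1 at 2.91 ± 1.10, Tspan33 at 2.53 ± 0.772 and Epb42 at 0.771 ± 0.540, where Slc4a1 and Tspan33 did not differ beyond their spread.

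**Figure D2:**
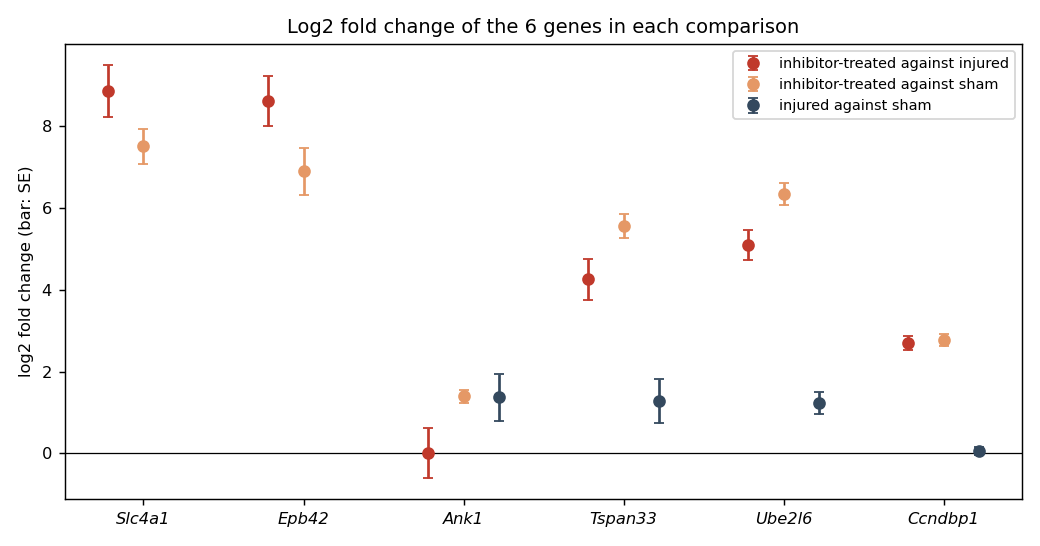
Log2 fold change of each gene on the log2(normalised count + 1) scale (bar: SE, n = 3 libraries a group) for inhibitor-treated against injured, inhibitor-treated against sham and injured against sham. Slc4a1 and Epb42 have no value for injured against sham, the Epb42 point against injured rests on 2 injured reads and depends on the added 1, and Ank1 against injured lies at 0.01.

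The comparison of injured with sham arteries addresses wire injury without the inhibitor, and it leaves out the libraries with high levels. Slc4a1 and Epb42, low in both groups, have no row in that table. Of the 4 genes tested with limma, 1 passed an adjusted p of 0.05 as higher, Ube2l6, where 20.6% of 16278 genes did and 37.3% passed in either direction. Ube2l6 was higher in injured than in sham arteries by 1.23 ± 0.26 on the log2 scale (limma adjusted p = 0.00601), in 3 of 3 libraries, and over the alternatives it ranged from 1.04 to 1.57 with adjusted p up to 0.0469. Ccndbp1 gave 0.05 ± 0.10 (limma adjusted p = 0.723).

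Ank1 and Tspan33 missed the threshold between injured and sham, both with injured replicate 2 as their highest library. Ank1 gave 1.37 ± 0.58 (limma adjusted p = 0.0952), and 0.58 ± 0.21 without injured replicate 2 (limma adjusted p = 0.0741). It passed without injured replicate 3 (1.89, limma adjusted p = 0.0205) and with edgeR on the recovered reads (adjusted p = 0.0489). Tspan33 gave 1.28 ± 0.53 (limma adjusted p = 0.0952), and 0.71 without injured replicate 2 (limma adjusted p = 0.301). It passed without injured replicate 3 (1.72, limma adjusted p = 0.0249), in a limma fit of all 9 libraries (adjusted p = 0.0489), with DESeq2 (adjusted p = 0.0449) and in the authors' deposited table (adjusted p = 0.0450).

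Within the inhibitor-treated group the genes varied together in part. All 6 were highest in replicate 2, which held 48.4% of the summed inhibitor-treated level of Slc4a1, 59.4% of Epb42, 41.7% of Ank1, 45.2% of Tspan33, 49.4% of Ube2l6 and 42.9% of Ccndbp1. They parted on replicates 1 and 3: the level in replicate 3 over that in replicate 1 was 2.18 for Slc4a1, 1.15 for Ank1 and 1.02 for Ccndbp1, and 0.752 for Epb42, 0.701 for Ube2l6 and 0.674 for Tspan33. Slc4a1 and Epb42, whose proteins bind each other, were thus ordered differently across these libraries. The share of all genes highest in replicate 2 was not counted, so its place as highest is not read as particular to these genes. Replicate 2 was also the inhibitor-treated library with the highest skeletal muscle and platelet sums, and replicate 3 the one with the hepatocyte genes; their part in the levels was not tested.

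Other red cell genes were taken from 3 hand-made lists that hold 76 genes beside the 6: red cell membrane, erythroid transcription and late erythroid maturation. The lists were written with earlier results of these data known. Against injured, 39 of the 74 companions tested rose and 8 fell in inhibitor-treated arteries, with a median log2 fold change of 0.94, and of 0.01 over all genes. Against sham, 33 of 72 rose and 0 fell, with a median of 0.60, and of -0.01 over all genes. Of all genes, 17.6% rose and 18.5% fell against injured, and 5.15% rose and 0.934% fell against sham. Both comparisons use the same inhibitor-treated libraries, and 26 companions rose in both. The share of all genes that rose in both was not counted. Of the 26, 9 were too low to be tested between injured and sham. Those 9 entered through the inhibitor-treated libraries, so their rise was set in part by the filter on low values. Without the libraries that stood apart, 38 companions rose against injured and 31 against sham. Between injured and sham, 19 of 63 rose and 15 fell, with a median of 0.05, where 20.6% of all genes rose and 16.8% fell.

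Of the red cell membrane list, 14 of 28 tested genes rose and 3 fell against injured (median 0.77), and 11 rose and 0 fell against sham (median 0.34). Of the 7 that rose in both, 5 were too low to be tested between injured and sham. Rhag, which encodes the Rh-associated glycoprotein of the red cell membrane, held 929 reads in inhibitor-treated libraries and 1 in injured libraries, a ratio of 875 with an exact 95% interval of 157 to 34614, and rose by 5.45 ± 0.53 against sham (limma adjusted p = 0.000955). Rhag was close to 0 outside the inhibitor-treated group, as Slc4a1 and Epb42 were.

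Epb41 and Xk had a level in every group. Epb41, the gene of protein 4.1 that ties spectrin and actin to the membrane, lay at 4740, 9070 and 21914 in inhibitor-treated libraries, between 1425 and 1655 in injured libraries and between 2061 and 2711 in sham libraries. It rose by 2.68 ± 0.48 against injured and 2.02 ± 0.47 against sham (limma adjusted p = 0.00474 and 0.0432). The call against sham was lost without inhibitor-treated replicate 2 or sham replicate 1, 2 or 3 (limma adjusted p = 0.110, 0.149, 0.117 and 0.0830). Xk, a membrane protein linked to the Kell antigen, rose by 2.44 ± 0.18 against injured (limma adjusted p = 0.000119), gave 0.16 ± 0.11 against sham (adjusted p = 0.469), and fell by 2.30 in injured against sham (adjusted p = 5.75e-05).

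Of the membrane genes that fell against injured, Kcnn4, a calcium-activated potassium channel, fell by 1.20 (limma adjusted p = 0.00816), Gypc, glycophorin C, by 0.44 (adjusted p = 0.0167) and Tmod3, which caps actin filaments, by 0.38 (adjusted p = 0.0243). None of these 3 passed against sham. The Gypc call was lost without inhibitor-treated replicate 2 or 3 or injured replicate 2 (limma adjusted p = 0.0673, 0.0599 and 0.0559), and the Tmod3 call without inhibitor-treated replicate 1 or 3 or injured replicate 2 (limma adjusted p = 0.0897, 0.0879 and 0.0576).

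The erythroid transcription list was divided: 5 of 19 tested genes rose and 5 fell against injured (median -0.10), and 7 of 18 rose and 0 fell against sham (median 0.36). Nfe2, a factor of the erythroid and platelet lineages, rose by 3.32 ± 0.41 and 5.44 ± 0.39 (limma adjusted p = 0.000948 and 0.000215), and E2f2, a cell cycle factor, by 2.01 ± 0.32 and 4.73 ± 0.29 (limma adjusted p = 0.0029 and 0.000111). Both also rose in injured against sham, by 2.10 ± 0.42 and 2.70 ± 0.32 (limma adjusted p = 0.00503 and 0.000367). Foxo3, a factor that many tissues express, rose by 0.93 ± 0.16 against injured (limma adjusted p = 0.00401) and gave 0.39 ± 0.13 against sham (limma adjusted p = 0.133). Gata1, the central erythroid factor, was named after its values were seen: it lay at 69.3, 127 and 64.5 in inhibitor-treated libraries, between 0.948 and 1.72 in injured libraries and at 0 in sham libraries. It was at least 80.3-fold higher than sham, with sham set at 3 reads over the group.

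Factors of early blood progenitors were among those that fell against injured. Lyl1 fell by 1.33, Kit, the stem cell factor receptor that mast cells also carry, by 1.27, and Cbfa2t3, a corepressor, by 0.62 (limma adjusted p = 0.000332, 0.0011 and 0.00331). Stat5a fell by 0.40 and Gata2 by 0.38 (limma adjusted p = 0.0194 and 0.0449), calls that were lost without inhibitor-treated replicate 1 (limma adjusted p = 0.0638 and 0.154), inhibitor-treated replicate 2 (0.0863 and 0.0746) or injured replicate 2 (0.0587 and 0.126), and for Gata2 also without inhibitor-treated replicate 3 (0.0812) or injured replicate 3 (0.0650). Against sham, Kit rose by 0.84 ± 0.19 (limma adjusted p = 0.039), a call lost without inhibitor-treated replicate 1, 2 or 3 or sham replicate 1 or 2 (limma adjusted p from 0.0524 to 0.146), and the other 4 did not pass. Lyl1, Kit and Cbfa2t3 rose in injured against sham, by 1.52 ± 0.20, 2.09 ± 0.19 and 0.47 ± 0.15 (limma adjusted p = 0.000549, 8.79e-05 and 0.0365), the last lost without injured replicate 1 or 2 or sham replicate 1 or 2 (limma adjusted p = 0.0899, 0.0945, 0.138 and 0.133). Macrophage genes (10) summed to between 2892 and 3280 in inhibitor-treated libraries, between 12101 and 14728 in injured libraries and between 2731 and 3024 in sham libraries; the part of cells other than red cells in these factors was not tested.

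Of the 27 late erythroid maturation genes, 20 rose and 0 fell against injured, and 15 of 26 rose and 0 fell against sham (median 1.26). Trim10, a RING-type protein of red cell precursors, rose by 7.61 ± 0.54 and 7.59 ± 0.48 (limma adjusted p = 0.000114 and 0.000128), Car2, carbonic anhydrase 2, by 6.24 ± 0.41 and 7.74 ± 0.43 (limma adjusted p = 8.93e-05 and 8.08e-05), and Tent5c, a poly(A) polymerase, by 5.52 ± 0.32 and 5.17 ± 0.30 (limma adjusted p = 6.27e-05 and 8.93e-05). Hemgn, a nuclear protein of blood cell precursors, held 677 reads in inhibitor-treated libraries and 1 each in the injured and sham groups, a ratio of 638 (exact 95% interval 114 to 25235) to injured.

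Trim58, a ubiquitin ligase gene of late erythroblasts on the same list, was singled out after its values were seen. It lay at 47.5, 54.1 and 69.1 in inhibitor-treated libraries, at 0 in all injured libraries and at 52.1, 65.7 and 62.1 in sham libraries. It was at least 58.1-fold higher in inhibitor-treated than in injured arteries, with injured set at 3 reads over the group, and against sham it gave -0.07 ± 0.21 (limma adjusted p = 0.876). Its levels thus set the injured libraries apart from both other groups, while those of Slc4a1 and Epb42 set the inhibitor-treated libraries apart.

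**Figure D3:**
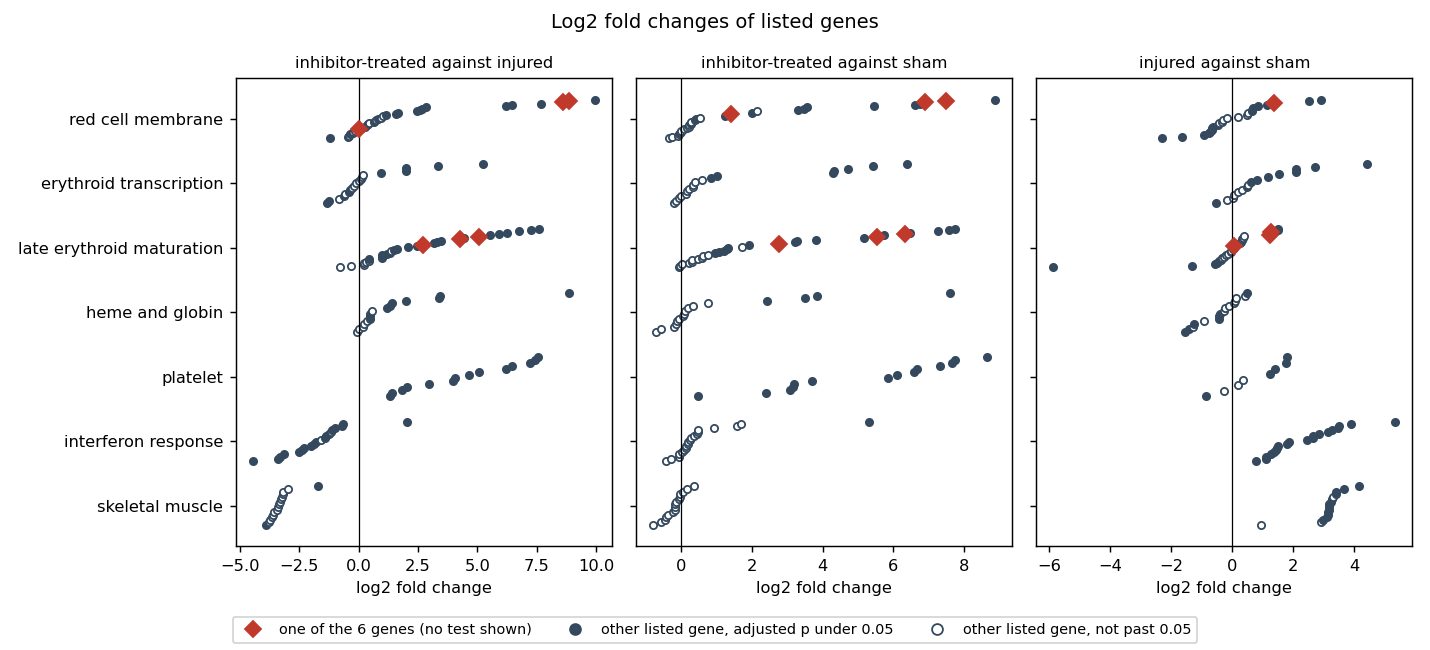
Log2 fold changes of the genes of 7 lists in the 3 comparisons, each list sorted from low to high; diamonds are the 6 genes described, filled circles are other genes past an adjusted p of 0.05 and open circles those that were not. Platelet genes lie right of 0 in both inhibitor comparisons (14 of 14 rose), while 17 of 20 interferon response genes fell against injured and 1 rose. For injured against sham, 6 of the 14 platelet genes were too low to be tested.

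Of 16 heme and globin genes tested, 10 rose and 0 fell against injured (median 0.53), and 4 rose and 0 fell against sham (median 0.09): Alas2, Fech, Slc25a37 and Tfrc. In injured against sham 1 of the 16 rose and 6 fell (median -0.34), where 20.6% of all genes rose and 16.8% fell. Alas2, the rate-limiting heme enzyme of red cell precursors, lay at 30976, 72797 and 43268 in inhibitor-treated libraries, between 64.5 and 157 in injured libraries and between 150 and 313 in sham libraries, and rose by 8.86 ± 0.39 and 7.62 ± 0.35 (limma adjusted p = 3.34e-05 and 6.41e-05). Fech, which inserts iron into heme, rose by 3.43 ± 0.25 and 3.51 ± 0.22 (limma adjusted p = 0.000128 in both), and Slc25a37, a mitochondrial iron carrier, by 3.37 ± 0.27 and 3.86 ± 0.25 (limma adjusted p = 0.000168 and 0.000132). Tfrc, the transferrin receptor, rose by 2.00 ± 0.51 and 2.43 ± 0.36 (limma adjusted p = 0.0204 and 0.00717); the call against injured was lost without inhibitor-treated replicate 1 or 2 or injured replicate 1 (limma adjusted p = 0.0746, 0.0693 and 0.0642).

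Hbb-bs, a beta globin gene whose reads can be shared with the near-identical Hbb-bt, lay at 2841, 2586 and 2287 in inhibitor-treated libraries, at 2000, 872 and 531 in injured libraries and at 3700, 1899 and 3389 in sham libraries. It rose by 1.40 ± 0.43 against injured (limma adjusted p = 0.0384), a call lost without inhibitor-treated replicate 1, 2 or 3 (limma adjusted p = 0.114, 0.0968 and 0.0897) or injured replicate 2 or 3 (0.105 and 0.0556), and gave -0.16 ± 0.23 against sham (limma adjusted p = 0.744). Hba-a1, an alpha globin gene that can share reads with Hba-a2, lay at 1285, 1157 and 1470 in inhibitor-treated libraries and at 2523, 1461 and 2650 in sham libraries, and did not pass (-0.71 ± 0.22, limma adjusted p = 0.110). In the libraries where the mean level of Slc4a1 was 200.9 times that in sham, Hbb-bs thus overlapped its sham levels. How the RNA was selected before sequencing is not given in the sources used here, and its part in the globin levels was not tested.

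Genes of platelets rose beside the red cell genes. All 14 listed platelet genes rose in both inhibitor comparisons (median 4.35 against injured and 5.97 against sham). Of all genes, 17.6% rose against injured and 5.15% against sham. Between injured and sham, 4 of 8 tested platelet genes rose and 1 fell, where 20.6% of all genes rose and 16.8% fell. The other 6 were too low to be tested there. Those 6 entered the inhibitor comparisons through the inhibitor-treated libraries, so their rise was set in part by the filter on low values. The summed level of the 14 lay between 18064 and 37916 in inhibitor-treated libraries, between 2522 and 3324 in injured libraries and between 2862 and 3417 in sham libraries. None of the 14 was at 0 in inhibitor-treated libraries. Ppbp, a platelet chemokine, rose by 7.24 ± 0.41 and 8.65 ± 0.45, Gp6, a collagen receptor, by 7.54 ± 0.64 and 7.67 ± 0.54, and Tubb1, platelet tubulin, by 7.43 ± 0.39 and 7.76 ± 0.55 (limma adjusted p up to 0.000213). Gp9, of the von Willebrand factor receptor, rose by 6.45 ± 0.57 and 7.32 ± 0.52 (limma adjusted p up to 0.000256). Replicate 2 was the highest inhibitor-treated library for 12 of the 14, as for all 6 genes described.

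White cell genes gave mixed counts. All 7 tested genes of neutrophil precursors fell against injured, among them Ltf, which fell by 6.00, Ngp, which fell by 5.33, and Lcn2, which fell by 1.57 (limma adjusted p = 0.00142, 0.00172 and 0.0028); against sham, 3 of the 11 listed genes had enough reads to be tested. Of 8 mature neutrophil genes, 2 rose and 1 fell against injured and 6 rose against sham. Of 7 B lymphocyte genes, 2 rose and 1 fell against injured and 3 rose against sham, and their inhibitor-treated sums ran from 840 to 4504, highest in replicate 3. In injured against sham, 7 of 7 neutrophil precursor genes, 8 of 8 mature neutrophil genes and 3 of 5 B lymphocyte genes rose. Precursor genes too low to be tested in inhibitor-treated against sham arteries entered through the injured libraries. Their rise here and their fall against injured were therefore set in part by the filter on low values. Of all genes, 17.6% rose and 18.5% fell against injured, 5.15% rose against sham, and 20.6% rose in injured against sham. The part of white cells and of platelets in the levels of the 6 genes was not tested.

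**Figure D4:**
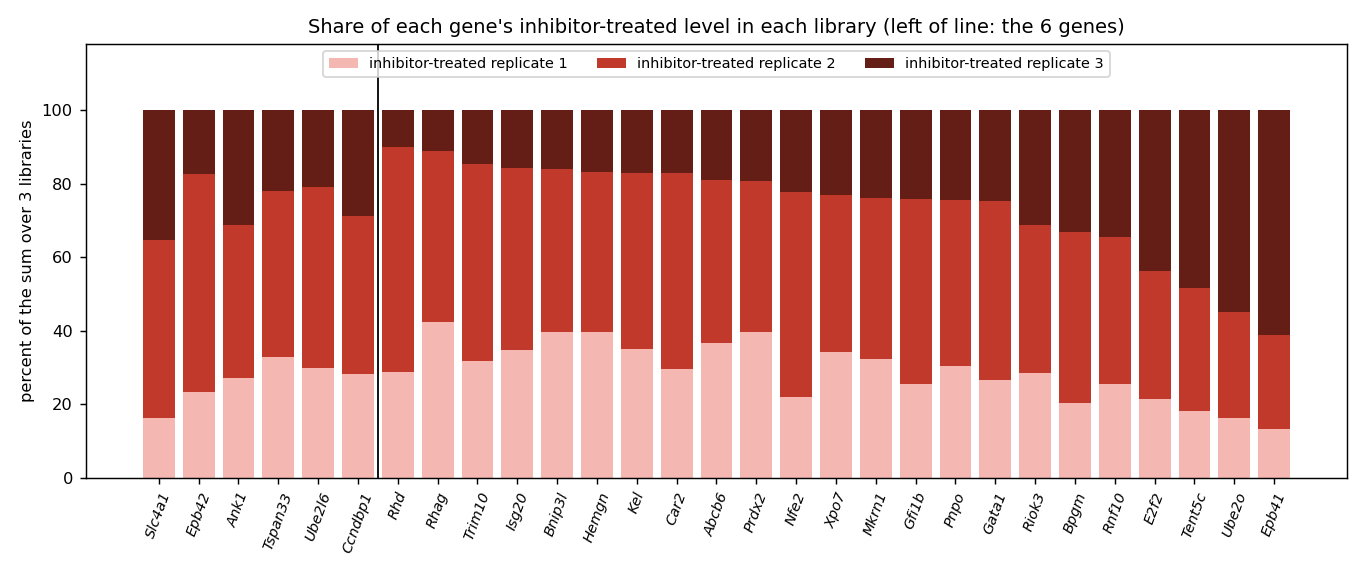
Share of each gene's summed inhibitor-treated level held by each of the 3 inhibitor-treated libraries, for the 6 genes (left of the line) and 23 of the red cell companions that rose in both inhibitor comparisons. Replicate 2 holds the largest share for 6 of the 6 genes and 19 of the 23 companions drawn, and replicate 3 for the 4 at the right, E2f2, Tent5c, Ube2o and Epb41.

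The companions divided on the same libraries as the 6 genes. Of the 26 that rose in both comparisons, 21 were highest in inhibitor-treated replicate 2, 5 in replicate 3 (among them Epb41, E2f2, Ube2o and Tent5c) and 0 in replicate 1. Replicate 3 was lowest for 17 and replicate 1 for 9. The share of all genes highest in each of these libraries was not counted. Replicate 2 was also highest for 3 of the 4 heme and globin genes and 12 of the 14 platelet genes that rose in both comparisons. The membrane genes were therefore not in step: Rhag, like Epb42, was lowest in replicate 3, Epb41 was highest there, and Slc4a1 was lowest in replicate 1.

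Ube2l6 is known as an interferon-induced gene. Its protein acts with Uba7, the ISG15-activating enzyme, Herc6, an ISG15 ligase of the mouse, Usp18, which removes ISG15, and Isg15 itself; Isg15 and Usp18 are named for these roles. Isg15 lay at 264, 570 and 150 in inhibitor-treated libraries, at 1001, 1067 and 241 in injured libraries and at 64.1, 143 and 73.0 in sham libraries, and did not pass in either inhibitor comparison (-1.17 ± 0.67 with limma adjusted p = 0.209 against injured, and 1.69 ± 0.47 with limma adjusted p = 0.0834 against sham). Uba7 fell by 1.01 against injured, Herc6 by 0.67 and Usp18 by 1.99 (limma adjusted p = 0.0109, 0.0181 and 0.00287), and against sham they gave 0.28 ± 0.20, 0.45 ± 0.13 and 0.47 ± 0.18 and did not pass (limma adjusted p = 0.473, 0.0886 and 0.180). The Herc6 call was lost without inhibitor-treated replicate 1 or 3 or injured replicate 2 (limma adjusted p = 0.0608, 0.0707 and 0.0522). In injured against sham all 4 rose, as Ube2l6 did, by 2.84 ± 0.56 for Isg15, 1.28 ± 0.22 for Uba7, 1.11 ± 0.17 for Herc6 and 2.45 ± 0.30 for Usp18 (limma adjusted p up to 0.00444).

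Over the list of 20 interferon response genes, 17 fell and 1 rose in inhibitor-treated against injured arteries (median -1.68), 0 fell and 1 rose against sham (median 0.22), and 20 of 20 rose in injured against sham (median 2.15). Their summed level lay between 7894 and 13396 in inhibitor-treated libraries, between 12782 and 28878 in injured libraries and between 4903 and 6456 in sham libraries. Mx1 fell by 4.45, Oas2 fell by 3.40, Zbp1 fell by 3.32 and Ddx58 fell by 1.11 against injured (limma adjusted p up to 0.00119). Ifit2 fell by 0.70 (limma adjusted p = 0.0343), a call lost without inhibitor-treated replicate 1, 2 or 3 or injured replicate 1 or 2 (limma adjusted p from 0.0754 to 0.115). The gene that rose was Rsad2, the antiviral enzyme viperin, by 2.04 ± 0.66 against injured (limma adjusted p = 0.047) and 5.32 ± 0.40 against sham (limma adjusted p = 0.000243). Its call against injured was lost without inhibitor-treated replicate 1, 2 or 3 or injured replicate 2 (limma adjusted p from 0.0539 to 0.141). Ube2l6 thus lay higher in inhibitor-treated than in injured arteries, while 17 of the 20 genes of this list fell. Isg20, by its name an interferon-stimulated gene, was placed on the late erythroid list and is not among the 20. It lay at 6442, 9233 and 2958 in inhibitor-treated libraries, at 279, 266 and 228 in injured libraries and at 77.1, 107 and 143 in sham libraries. The part of interferon in the level of Ube2l6 was not tested.

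**Figure D5:**
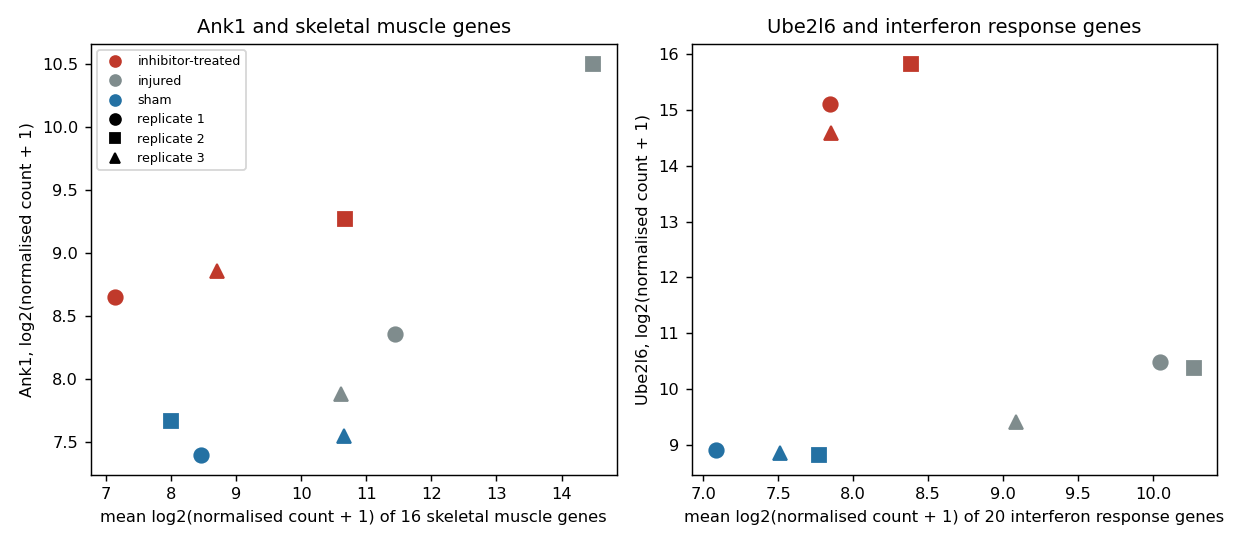
Left, Ank1 beside the mean of 16 skeletal muscle genes, and right, Ube2l6 beside the mean of 20 interferon response genes, all axes as log2(normalised count + 1) and each point a library. Injured replicate 2 is at the upper right on the left panel, with Ank1 at 1453, and on the right panel the 3 inhibitor-treated libraries lie at the top, at 24701 to 58520 for Ube2l6, with list means below those of all injured libraries.

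Levels of the genes were compared across the 9 libraries on the log2(level + 1) scale, as a description, since the libraries share groups and 3 of them hold nearly all of the signal. The 10 pairs without Ank1 had a Pearson correlation between 0.876 and 0.985. The 5 pairs with Ank1 had one between 0.210 and 0.611, and between 0.778 and 0.945 without injured replicate 2. Among the genes most like the mean of the 6 over 9 libraries, among 11672 with a mean level of at least 100, were Isca1 (0.996), Mkrn1 (0.994), Fam220a (0.992), Bpgm (0.991), Psme3 (0.990), Fech (0.989), Trim10 (0.989) and Adipor1 (0.987). Isca1, an iron-sulfur cluster protein, lay at 9051, 12175 and 7489 in inhibitor-treated libraries, between 1269 and 1703 in injured libraries and between 1191 and 1508 in sham libraries.

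Each gene also had its own nearest genes by the same measure. Slc4a1 was most like Alas2 and Alox12, and Epb42 most like Gclm, Azin1 and Fam220a. Tspan33 was most like Ftl1-ps1, a ferritin pseudogene copy whose reads are uncertain, Car2 and Isg20. Ube2l6 was most like Car2, Ppbp and Gp9, and Ccndbp1 most like Mkrn1, Fech and Psme3. Ank1 was most like Smox (0.917), Chrnb1, a muscle acetylcholine receptor subunit (0.903), and Tuba4a (0.888), each highest in injured replicate 2.

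Epb42 and Ccndbp1 point toward each other on chromosome 2, with 986 bases between their ends. Tmem62, which lies 0.550 kb before Ccndbp1, gave 0.26 ± 0.14 against injured (limma adjusted p = 0.193) and 0.09 ± 0.14 against sham (limma adjusted p = 0.757), and did not pass. Of 30 other genes nearest to the 6, 2 rose and 6 fell in inhibitor-treated against injured arteries (median -0.06), where 17.6% of all genes rose and 18.5% fell. Against sham 1 rose and 1 fell (median -0.01), where 5.15% of all genes rose and 0.934% fell. The neighbour that rose in both was Slc25a39, a mitochondrial carrier 36.8 kb from Slc4a1. It lay at 8731, 13688 and 7723 in inhibitor-treated libraries, at 2077, 1648 and 1329 in injured libraries and at 1888, 1779 and 2245 in sham libraries, and rose by 2.56 ± 0.24 and 2.32 ± 0.20 (limma adjusted p = 0.000326 and 0.00048). As with the 5 genes that stood apart, its inhibitor-treated libraries lay above all others, as they did for 5.3% of 16750 genes, and replicate 2 was highest.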

How the data were processed

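RNA-seq of 9 libraries was deposited as 3 tables, 1 for each pair of groups. The deposited columns hold a normalised signal, reads per gene divided by 1 factor per library, set by the authors in each table; 100% of values came out as whole reads within 0.01 read. The tables also hold the authors' log2 fold changes and the authors' p-values, per the file headers. The build was mm10 (GRCm38), per the submitters' processing notes; aligner, counter and strand setting: not given in the sources used here. The tables held 16933, 16187 and 16315 genes (inhibitor-treated with injured, inhibitor-treated with sham, injured with sham), with no gene mean under 9.22; 21 names per table had been turned into dates.

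The main test was limma 3.58.1 (R 4.3.3) with a trended variance on log2(normalised value + 1), two-sided, within each table. It covered genes with a mean of at least 10, with Benjamini-Hochberg adjustment and a threshold of 0.05. It was also run on simulated counts with the same dispersion for all genes and no libraries that stand apart. That run does not show how the calls behave in libraries like these. Fold changes are on that scale, on which low genes show less than their full change. On the recovered reads edgeR 4.0.16 called 5962, 899 and 6055 genes and limma 6099, 983 and 6076. DESeq2 1.42.0, other filters, a pseudocount of 4, quantile normalisation, a replicate block and leaving out libraries were the alternatives. A permutation test of 3 against 3 libraries cannot go below p = 0.1, so none was run. Ratios against groups with up to 3 reads come from pooled reads with exact intervals, and a group at 0 was set at 3 reads; both cover counting error only. Exon lengths and positions are from GENCODE M21.

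The members and the 14 gene lists were chosen with earlier results of these data known. The text names, from 7 lists, the 5 highest and 3 lowest called genes against injured with a mean of at least 100, the 10 genes most like the members, 3 for each member, and neighbours; other names are marked, and some genes under this rule are not reported here.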

Additional observations from a re-analysis of the deposited data

How the results depend on the processing

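Leaving out the libraries that stood apart (inhibitor-treated replicate 3, injured replicate 2 and sham replicate 3), chosen after seeing the data, gave 3069 called genes for inhibitor-treated against injured, where 6099 were called with all libraries; fewer libraries enter that fit. Leaving out 1 library at a time gave 4099 to 7938 called genes against injured and 518 to 822 against sham, where 983 were called with all libraries, the lowest without sham replicate 1 (518) and the others past 1.5 times without inhibitor-treated replicate 1 (601) or 2 (541) or sham replicate 2 (599); injured against sham ran from 4350 to 7312. Companions that rose numbered 32 to 39, 22 to 35 and 14 to 20 over the same fits. With a mean of at least 50, 12 companions rose in injured against sham, where 19 did at the lower filter; fewer genes are tested there. Of 255 alternative values of the 6 genes, 11 inhibitor-treated differences moved by over 1 SD. Another 7 differences of injured from sham passed the threshold where they had not, and 237 values did neither. Ank1 against injured ran from -0.50 to 0.84 and passed without injured replicate 2. Ank1 against sham (1.39 ± 0.53, SE) did not pass in a fit of all 9 libraries. This was the one inhibitor-treated call of the 6 genes lost under the alternatives run. Every alternative reuses the libraries on which the 6 genes were chosen, so nothing is read from the calls that were kept. Of 3930 alternative values of other named genes, 166 lost the call and 36 gained one. Same-numbered libraries correlated in their deviations by between -0.074 and 0.214, and differently numbered ones by between -0.228 and 0.185. With 3 libraries a group these values cannot show whether the replicate numbers pair the libraries, and the labels state no pairing. With a replicate block 5747, 877 and 5762 genes were called, 40, 33 and 18 companions rose, Ank1 passed in injured against sham (limma adjusted p = 0.0413) and Cbfa2t3 did not (limma adjusted p = 0.0625). With 3 libraries a group and recovered reads of 14676891 to 21248740 per library, levels of a few reads, as for Epb42 in injured arteries, bound a fold only widely.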
